A study of Mus musculus with 12 samples.

Results

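During the retinoic acid response of P19 cells, 83 genes were low in the middle of the time course and high at both ends. These genes with a transient dip were chosen by their level in CPM, the reads of a gene scaled to the same total of kept reads in every library. A gene was taken when the lower of its day 2 (D2) and day 4 (D4) means was at most 0.5 of both its day 0 (D0) and its day 6 (D6) mean, and when D0 and D6 were each at least 30 CPM. Of 14042 genes with a kept read, 3806 had at least 30 CPM at D0 and D6, and 83 of those (2.18%) met the rule. The D2 and D4 levels therefore chose the members, and they are described here without a test.

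P19 is an embryonal carcinoma line made from a male mouse embryo. D0 cells were undifferentiated and were kept in DMEM with 10% fetal bovine serum. D2, D4 and D6 cells had received 500 nM retinoic acid in NDiff 227 medium on poly-L-lysine for 2, 4 and 6 days, so D0 also differed from the other days in medium and serum. The cells were 1 established line, with no genetic change, and native polyadenylated RNA of 3 biological replicates per day was read on nanopores, 12 libraries in all.

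Retinoic acid enters cells and binds nuclear receptors that switch on patterning genes, and pluripotent cells exposed to it leave the cell cycle over several days and form neurons. In between they pass through a neural progenitor state, in which genes for axons and synapses are usually still low. In bulk RNA, fewer cells of a type and less RNA per cell cannot be told apart.

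The label of the days was checked on marker genes. Summed over 12 detected pluripotency markers, the level was 2871 to 2923 CPM in the D0 libraries, 665 to 705 in those of D2, 564 to 627 in those of D4 and 468 to 588 in those of D6. Neural progenitor markers summed to 301 to 356 CPM at D0, 823 to 982 CPM at D2, 1253 to 1500 CPM at D4 and 1860 to 2045 CPM at D6. The sum of 46 neuronal genes was 5567 to 5690 CPM at D0, 4106 to 4376 CPM at D2, 11304 to 11865 CPM at D4 and 19861 to 21203 CPM at D6, and 3 members are among those genes. Markers of endoderm summed to at most 17.8 CPM and those of heart muscle to at most 7.4 CPM in any library. Markers of mesoderm, smooth muscle and fibroblasts summed to 55.9 to 57.9 CPM at D0 and 2.3 to 8.9 CPM at D6, and those of neural crest to 27.7 to 35.6 CPM and 88.6 to 110 CPM. No member was in a list of markers of a cell type. Of 9 glial markers 6 had reads, and their sum was 65.5 to 102 CPM at D0, 0 to 45.6 at D2, 66.6 to 109 at D4 and 50.5 to 62.6 at D6, mostly from Slc1a3 and Mbp. Its part in the D2 levels of the members was not tested. Kept reads per library were 449406 to 613756 at D0, 120326 to 241064 at D2, 252203 to 435389 at D4 and 271499 to 428800 at D6, so the shallowest libraries were those of the day at which most members were lowest. Each sequencing run held 1 day. Run names date all D0 runs to December and all D2 and D4 runs to January, and they date the D6 runs to both months, so run period and the fall from D0 to D2 cannot be told apart. The D0 run names call the cells undifferentiated but carry the mark D2, and 2 of the 4 D6 runs name no day, so libraries were grouped by the sample labels.

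The lowest day was D2 for 65 members and D4 for 18. At D2 alone 56 members were at or under 0.5 of both ends, at D4 alone 17 were, and 10 were at both days. The lower end was 2.01 to 11.76 times the low day, with a median of 2.41. The 83 genes held 0.788 to 0.842% of kept reads at D0, 0.261 to 0.321% at D2, 0.514 to 0.57% at D4 and 0.855 to 0.923% at D6. The 3 libraries of the low day lay below every D0 and D6 library in 69 members, and this held for 7.07% of the 3806 genes. In 21 members all D2 and D4 libraries lay below all D0 and D6 libraries (1.08% of the 3806 genes), and in 21 the ratio was at most 0.5 within each of the 3 replicate numbers (0.604% of the 3806 genes). These shares follow from the choice of members and say nothing more about them.

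**Figure D1:**
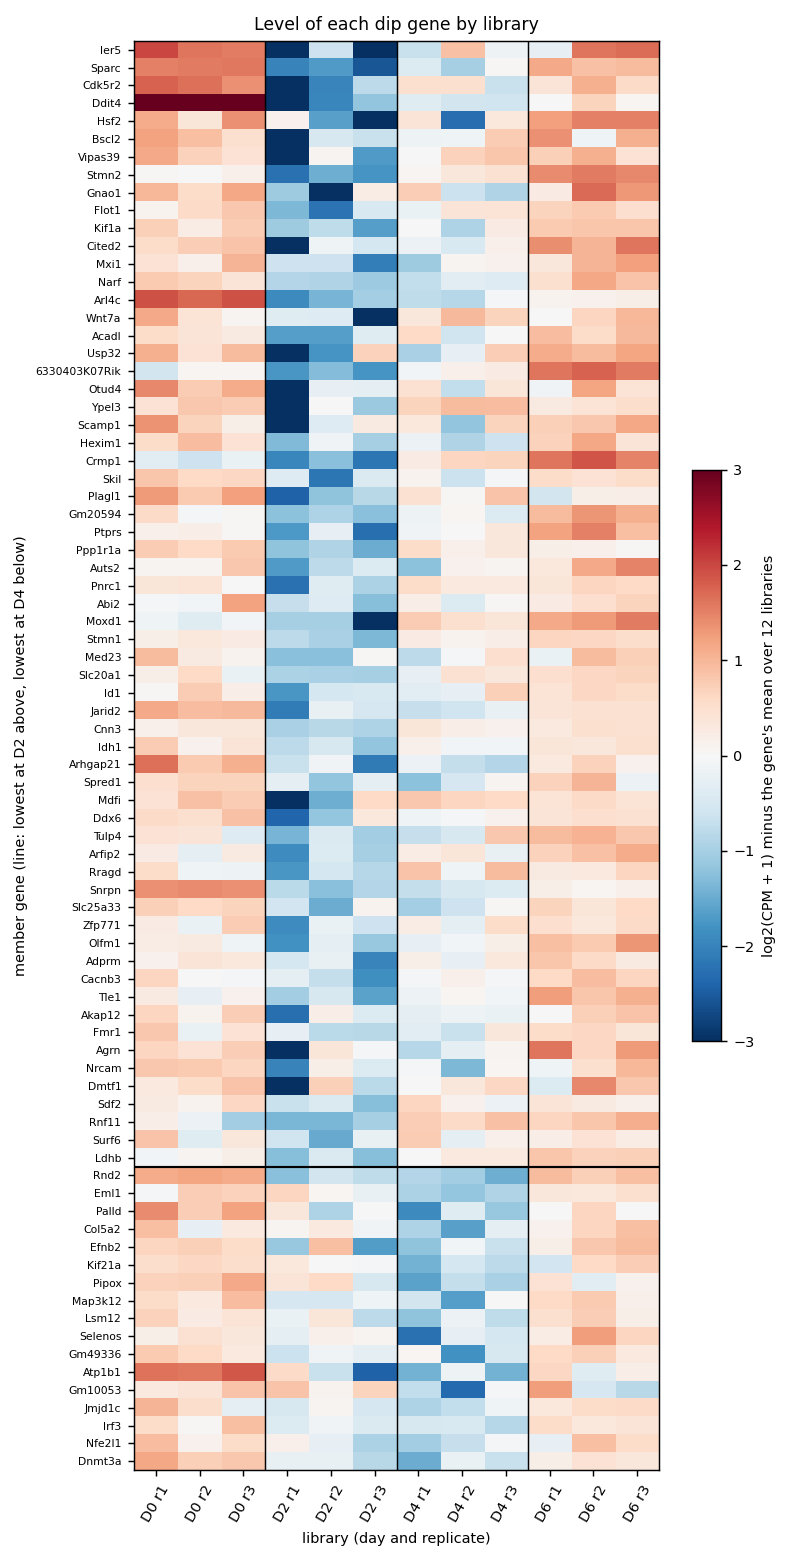
Heat map of members (rows, without those not reported by name) in the 12 libraries (columns, day and replicate), coloured by log2(CPM + 1) minus the gene's mean over the libraries. The upper rows, lowest at D2, are mostly blue in the D2 columns, and the lower rows, lowest at D4, are mostly blue in the D4 columns.

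Most members rested on few reads. A member had 107 to 5541 reads over all libraries, with a median of 169, and a median of 10 reads at D2 over its 3 libraries together. In 34 members the low day had under 10 reads in all, and in 18 at least 1 D2 library had none. The lower end was under 50 CPM in 56 members and at least 100 CPM in 11. The median CPM over all days was 36.7 for members and 80.4 for the other genes of the 3806.

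Among the neuronal members, Stmn1 and Stmn2 were backed by 293 and 46 reads at D2. They encode stathmins, which bind tubulin and loosen microtubules, and Stmn2 is typical of growing axons. Stmn1 (mm10, the build of all gene positions here, chromosome 4, 134468320 to 134473843, plus strand, 5 exons) was at 1262, 1391 and 1320 CPM in the D0 libraries, 640, 564 and 434 at D2, 1324, 1199 and 1273 at D4 and 1750, 1712 and 1604 at D6. Every D2 library lay below all the others, and the D4 libraries overlapped those of D0. Stmn2 (chromosome 3, 8509360 to 8561606, plus strand, 5 exons) was at 283, 282 and 310 CPM at D0, 58.2, 99.6 and 81.3 at D2, 289, 354 and 379 at D4 and 740, 819 and 752 at D6. The Stmn2 mean thus fell from 292 to 79.7 CPM and then climbed to 770 CPM, above where it began.

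The third member of the neuronal list was Crmp1 (chromosome 5, 37242080 to 37292133, plus strand, 14 exons), a collapsin response mediator that relays axon guidance signals. Crmp1 was, in the D0 libraries, at 80.1, 65.2 and 86.7 CPM, then at 24.9, 41.5 and 21.7 at D2, 119, 156 and 161 at D4 and 306, 371 and 282 at D6. The days did not overlap, and the D2 values rested on 17 reads. In the list of 46 neuronal genes, 15 had at least 30 CPM at D0 and D6, and 3 of those 15 were members. Tubb3, the neuronal tubulin of the same list, missed the limit narrowly, with means of 128 CPM at D0, then 64.0 at D2, 459 at D4 and 972 at D6. Of 42 genes of the list that were tested, 39 were higher and 0 were lower at the last day than at the first by limma-voom, beside 19.4% of all 9309 genes tested higher. The lists were chosen with results of these data known and give no independent support.

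**Figure D2:**
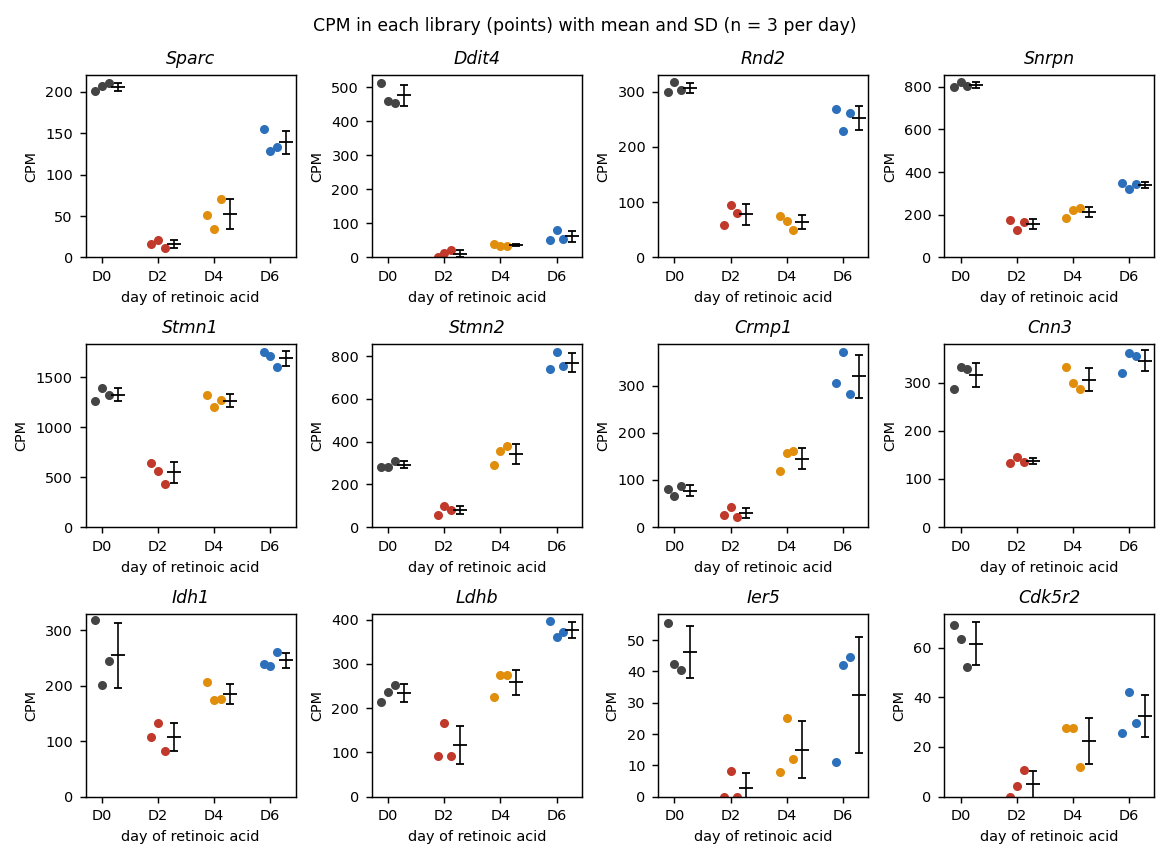
CPM of 12 members in each library (points) by day, with mean and SD (n = 3 per day), each panel with its own axis from 0. In CPM, Stmn1, Stmn2, Crmp1 and Ldhb end above D0, while Ddit4 and Snrpn come back only in part. By limma-voom the D6 minus D0 difference of Stmn1 (0.11 ± 0.09, log2, SE) was not called.

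Cdk5r2, Gnao1 and Kif1a, also neuronal, had fewer reads. Cdk5r2 (chromosome 1, 74854934 to 74857732), an activator of the neuronal kinase Cdk5, was at 69.0, 63.5 and 52.0 CPM at D0, 0, 4.15 and 10.8 at D2, 27.8, 27.6 and 11.9 at D4 and 25.8, 42.0 and 29.7 at D6. Only 3 D2 reads lay behind this. Gnao1, the G protein alpha subunit abundant in brain, averaged 36.0 ± 7.5 CPM at D0, then 10.0 ± 10.9 at D2, 17.6 ± 12.3 at D4 and 44.2 ± 20.6 at D6 (SD, n = 3). Kif1a, a kinesin that carries synaptic vesicle precursors, averaged 54.7 ± 10.7 CPM at D0, then 16.1 ± 5.0 at D2, 32.2 ± 12.5 at D4 and 64.4 ± 1.6 at D6 (SD, n = 3). Both were lowest at D2 and stood between D2 and D6 at D4.

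Rnd2 (chromosome 11, 101468175 to 101471853, plus strand, 5 exons), a small GTPase that acts in migrating neurons, was one of the members low at both days. It was at 300, 318 and 303 CPM at D0, 58.2, 95.4 and 81.3 at D2, 75.3, 66.6 and 49.8 at D4 and 269, 229 and 261 at D6. No library of the middle days reached any library of the ends. Grouped by role from general knowledge after their values were seen, 20 members belong to the neuronal cytoskeleton, axon and synapse. Their folds ran from 2.06 to 6.5 with a median of 2.44 and 15 were lowest at D2.

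Sparc (chromosome 11, 55394500 to 55420080, minus strand, 10 exons), a matrix protein that binds collagen, had the second deepest dip. It was at 200, 207 and 210 CPM at D0, 16.6, 20.7 and 10.8 at D2, 51.6, 34.5 and 71.1 at D4 and 155, 128 and 134 at D6. The D2 libraries lay below the D4 libraries, and these lay below both ends. Col5a2, a fibrillar collagen chain and the other member of the matrix list, was lowest at D4, with 6.89 to 18.96 CPM against 19.55 to 44.5 CPM at D0 and 25.78 to 44.57 CPM at D6. Of 27 matrix genes, 6 were high enough at D0 and D6 and 2 of those were members.

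Cnn3, a calponin that binds actin, was the 1 member of 19 eligible actin and contractile genes. It was at 287, 332 and 328 CPM at D0, 133, 145 and 136 at D2, 333, 299 and 287 at D4 and 320, 361 and 357 at D6. Only the D2 libraries stood apart. The group of matrix, actin and membrane genes had 6 members with folds of 2.16 to 8.64.

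Ddit4 (chromosome 10, 59949669 to 59951834, minus strand, 3 exons), an inhibitor of mTORC1 that stress and low oxygen induce, fell furthest from D0. It was at 512, 461 and 455 CPM at D0, 0, 12.4 and 21.7 at D2, 39.7, 34.5 and 33.2 at D4 and 51.6, 81.6 and 53.5 at D6. The D0 mean was 41.82 times the D2 mean and 7.65 times the D6 mean, so that D6 recovered a small part of the loss. With Ldhb it was 1 of 2 members among 15 eligible genes of glycolysis and the hypoxia response, a list in which 24 of 30 tested genes were lower at D6 and 1 was higher, beside 18.2% of all genes tested lower. The summed level of that list was 26967 to 28582 CPM at D0, 11644 to 12749 at D2, 8528 to 9477 at D4 and 7012 to 7293 at D6.

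Ier5 (chromosome 1, 155096361 to 155099636, minus strand, 1 exon), an immediate early gene that growth factors and heat induce, had the deepest dip by ratio. Its libraries were at 55.6, 42.4 and 40.5 CPM at D0, 0, 8.30 and 0 at D2, 7.93, 25.3 and 11.9 at D4 and 11.1, 42.0 and 44.6 at D6. Only 2 reads were seen at D2, and Ier5 no longer met the rule with trimmed-mean scaling, in thinned libraries, or without D6 replicate 2 or 3. D6 replicate 1 stood within the D4 range. It was the 1 member among 4 eligible immediate early genes. The 11 members for stress, signalling and small GTPases spanned folds of 2.02 to 11.76.

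Snrpn (chromosome 7, 59982495 to 60005111, minus strand, 10 exons), an imprinted gene for a spliceosomal Sm protein that neurons express strongly, was at 799, 823 and 805 CPM at D0, 175, 129 and 168 at D2, 186, 220 and 230 at D4 and 350, 322 and 345 at D6. All 6 libraries of the middle days lay below both ends, and D6 stayed below D0. Without D2 replicate 2 it no longer met the rule. Plagl1, an imprinted zinc finger factor that slows proliferation, averaged 107 ± 19.8 CPM at D0, then 18.7 ± 9.6 at D2, 69.3 ± 19.8 at D4 and 48.5 ± 13.3 at D6 (SD, n = 3). Its D6 level was 72.9 ± 20.6 CPM in the December runs and 28.9 ± 8.8 CPM in the January runs (SD, n = 3), and with the January runs alone Plagl1 did not meet the rule. Snrpn and Plagl1 were 2 of 7 eligible imprinted genes.

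Genes for transcription and chromatin gave 19 members with folds of 2.04 to 4.5 and a median of 2.32. Hsf2, a heat shock factor, averaged 31.1 ± 10.6 CPM at D0, then 6.9 ± 8.7 at D2, 13.7 ± 9.9 at D4 and 41.9 ± 4.4 at D6 (SD, n = 3), on 3 reads at D2. Cited2, a partner of CBP and p300 that restrains the hypoxia factor HIF-1, was at 46.7, 53.8 and 57.8 CPM at D0, 0, 29.0 and 21.7 at D2, 27.8, 23.0 and 35.6 at D4 and 84.7, 65.3 and 98.0 at D6. All its middle libraries lay below both ends. Id1, an inhibitor of basic helix-loop-helix factors and a target of BMP signals, averaged 39.3 ± 11.2, 16.9 ± 7.5, 32.9 ± 14.6 and 43.9 ± 3.1 CPM from D0 to D6, day by day (SD, n = 3). It was 1 of 2 eligible genes of the BMP and Id list.

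Metabolic members included Idh1, the cytosolic enzyme that makes NADPH from isocitrate. Its libraries were at 318, 202 and 245 CPM at D0, 108, 133 and 81.3 at D2, 206, 175 and 175 at D4 and 239, 236 and 261 at D6. The D2 libraries stood below the rest. Ldhb, a lactate dehydrogenase subunit, had the ratio closest to the limit from inside (0.4977), with 214, 236 and 252 CPM at D0, 91.4, 166 and 92.2 at D2, 226, 276 and 275 at D4 and 398, 361 and 371 at D6. Its D2 replicate 2 was well above the other D2 libraries but below D0, and Ldhb was kept by 14 of 20 other forms of the rule. Bscl2, whose protein seipin shapes lipid droplets, fell to 5 reads at D2, with 0, 12.4 and 10.8 CPM beside 42.3, 34.2 and 25.1 at D0. The 9 metabolic and transport members had folds of 2.01 to 4.36.

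Flot1, a membrane scaffold protein, Narf, a protein bound to prelamin A, and Vipas39, which acts in endosome sorting, were also among the 15 deepest dips. Narf averaged 73.0 ± 10.5, 23.8 ± 1.9, 33.4 ± 4.9 and 86.6 ± 20.5 CPM from D0 to D6, day by day (SD, n = 3). Flot1 and Vipas39 had folds of 3.45 and 3.89 on 5 and 6 reads at D2. The 11 members for RNA, ubiquitin and vesicle traffic had folds of 2.02 to 3.89. The transcript 6330403K07Rik was at 77.9, 119 and 118 CPM at D0, 33.2, 45.6 and 32.5 at D2, 107, 126 and 135 at D4 and 350, 387 and 339 at D6. D2 was its only low day, and D6 exceeded every other library.

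Near the limit the choice was fine-grained. Just inside lay Surf6 and Ldhb, with ratios of the low day to the lower end of 0.495 and 0.4977. Just outside lay Tubb3, Enc1 and Nlk at 0.5001, 0.5008 and 0.5009. Surf6 rested on 123 reads and Nlk on 130. Among genes outside the group, the profiles most like the members' mean standardised profile over the 12 libraries were those of Cul3 (Pearson r 0.939), Dynlt1b (0.922), Calm3 (0.892), Aff4 (0.881) and Nipsnap1 (0.876), which share the libraries and their depth. Cul3, a ubiquitin ligase scaffold, averaged 118 CPM at D0, then 61.4 at D2, 90.5 at D4 and 124 at D6, a ratio of 0.521.

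Some members share sequence with other genes. Of the 31-base words in the main transcript, Gm10053 shared 96.6% with transcripts of other genes, most with Cycs, and 1.52% of its reads had a mapping quality of at least 10, so its reads cannot be told apart from those of Cycs. In 10 members at least 10% of words were shared, among them Gm49336 (44.5%, most with Nupl1), Stmn1 (42.6%), Ldhb (41.4%), Snrpn (32%) and Cnn3 (27.1%), whose closest matches were predicted genes. In the same order, 100, 99.4, 93.9, 51.7 and 57.4% of their reads had a mapping quality of at least 10. In 16 members under 10% of reads had that quality, among them Arhgap21 and Palld (0% each), Dnmt3a (1.09%) and Ptprs (2.92%). Arhgap21, Palld, Dnmt3a and Ptprs shared 0.461, 0, 0.321 and 0.036% of words with other genes, in that order. Gm20594 shared most with the mitochondrial ribosomal RNA mt-Rnr2 and had tails far shorter than the other members, as given below.

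Promoter sequence was read for 4 members, a pair with the deepest dips (Ier5 and Sparc) and a pair that ended higher at D6 than at D0 (Crmp1 and Ldhb). The 120 bases before the start site are from RefSeq (GRCm38.p6), 5′ to 3′ on the gene's strand: Ier5 at chr1:155099637-155099756 (minus), Sparc at chr11:55420081-55420200 (minus), Crmp1 at chr5:37241938-37242057 (plus) and Ldhb at chr6:142507958-142508077 (minus). Capitals mark CCAAT and GGGCGG on either strand.
Ier5: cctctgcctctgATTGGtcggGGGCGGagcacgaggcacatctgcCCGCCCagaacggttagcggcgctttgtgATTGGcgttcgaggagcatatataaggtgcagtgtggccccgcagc
Sparc: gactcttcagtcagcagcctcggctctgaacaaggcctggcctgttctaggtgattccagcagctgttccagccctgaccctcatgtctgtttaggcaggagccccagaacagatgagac
Crmp1: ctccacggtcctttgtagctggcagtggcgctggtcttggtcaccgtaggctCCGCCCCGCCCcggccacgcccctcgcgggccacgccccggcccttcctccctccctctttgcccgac
Ldhb: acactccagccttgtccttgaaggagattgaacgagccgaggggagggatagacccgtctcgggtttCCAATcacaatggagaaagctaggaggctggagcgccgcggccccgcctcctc

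Ier5 held CCAAT and GGGCGG at 2 places each, Crmp1 held GGGCGG at 2 overlapping places, Ldhb held CCAAT once, and Sparc held none of the motifs searched in this stretch. Over 250 bases before the start, 63 members had a window, and the other 20 had none in the table. GGGCGG (GC box) lay in 65.1% of the member windows and 63.3% of 3080 windows of the genes with at least 30 CPM at D0 and D6, against 32.7% of all 32851 windows. CCAAT lay in 31.7%, 38.9% and 33.8%, CACGTG (E-box) in 15.9%, 10.6% and 6.02%, AGGTCA (a unit of the sites that retinoic acid receptors bind) in 11.1%, 10.4% and 14.0%, and TATAAA in 3.17%, 5.32% and 12.4%, in the same order. TGACGTCA was in 0 of the 63 windows, 3.28% of the 3080 and 1.55% of all. For members, the window nearest the start of the main transcript was taken. The 3080 windows were taken without regard to the main transcript, and the 32851 are all windows available. The shares are therefore not like for like, and the part of window choice in their differences was not tested. Both strands were searched, and no motif contains another. These are matches of letters and not sites of binding.

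The rule held D0 and D6 to the same floor but not to an order, so D6 was tested against D0 by limma-voom with Benjamini-Hochberg adjustment over 9309 genes. At an adjusted p of at most 0.05, 11 members were higher (19.4% of all genes) and 16 lower (18.2% of all genes), and 56 did not pass. The median log2 difference was -0.10 over members, -0.09 over the 3806 genes with at least 30 CPM at D0 and D6, and 0.02 over all genes tested. Scaled by total reads, the median over all genes was 0.26, and 16 members were higher and 12 lower, out of 2589 and 1163 such genes in all.

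Of the higher members, Crmp1 differed by 1.82 ± 0.18 (log2, SE; adjusted p = 2.22e-13), 6330403K07Rik by 1.54 ± 0.16, Moxd1, a monooxygenase-like protein, by 1.31 ± 0.23 and Stmn2 by 1.17 ± 0.12. Each of these was higher in every D6 library than in every D0 library. Other higher members were Gm20594, Ldhb, Olfm1, Ptprs, Rnf11 and Tle1, at 0.44 to 0.98. Of the lower members, Ddit4 differed by -3.12 ± 0.2 (SE; adjusted p = 2.78e-20), Arl4c, a small GTPase, by -1.93 ± 0.25, Atp1b1, a sodium pump subunit, by -1.84 ± 0.28 and Snrpn by -1.50 ± 0.12. Others were Arhgap21, Cdk5r2, Dnmt3a, Gm10053, Jarid2, Palld, Pipox, Plagl1, Ppp1r1a, Rnd2 and Sparc, at -1.30 to -0.53. Gm10053, Gm20594, Moxd1, Olfm1, Ptprs, Rnf11, Tle1, Arl4c, Atp1b1, Arhgap21, Dnmt3a, Jarid2, Palld, Pipox and Ppp1r1a are named because they passed this test.

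Leaving out 1 library ended the call for 6 of the 27. They were Ldhb (0.35 without D0 replicate 1), Olfm1 (0.51 without D0 replicate 3 and 0.44 without D6 replicate 3), Ptprs (0.68 without D6 replicate 2), Rnf11 (0.64 without D0 replicate 3) and Tle1 (0.60 without D0 replicate 2 and 0.63 without D6 replicate 1). The last was Gm10053 (-0.95 and -0.72 without D0 replicates 2 and 3, -0.63 and -0.61 without D6 replicates 2 and 3). Gm10053 was also not called with a replicate block, and in all it lost its call in 8 of 17 alternatives. With reads of mapping quality of at least 10 alone, 63 members could be tested. Rnd2, Tle1 and Sparc (-0.16) were among those no longer called there. Arhgap21, Dnmt3a, Gm10053, Jarid2, Palld and Ptprs had too few such reads to be tested.

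**Figure D3:**
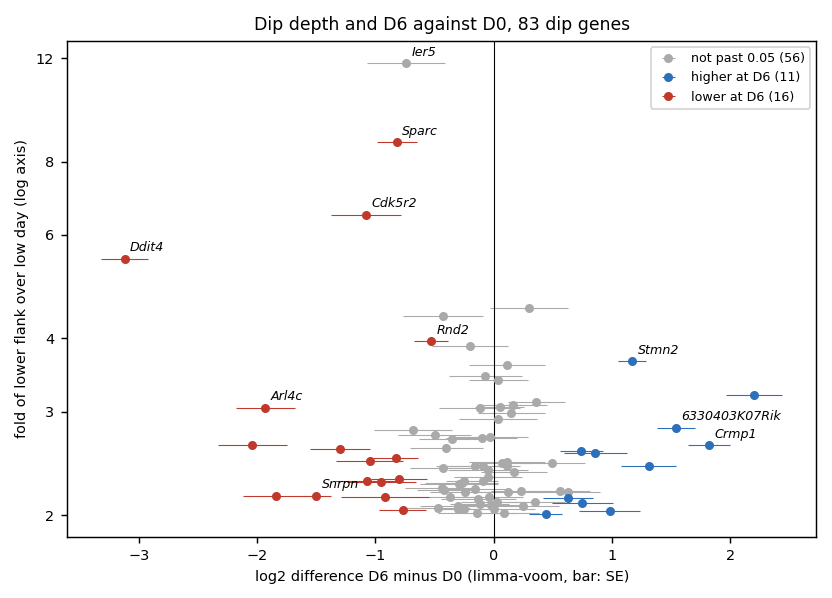
Each of the 83 members by its log2 difference D6 minus D0 (limma-voom, x axis, bar SE) and the fold of the lower end over the low day (y axis, log scale). The 11 members higher at D6 (blue) lie right of 0 and the 16 lower (red) left of it, and Ddit4 lies furthest left at -3.12.

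The D6 libraries came from runs of both periods, and these could be set apart. D6 held 461741 kept reads from December runs and 575145 from January runs. Over the members the median log2 ratio of January to December D6 was -0.06, and single ratios ran from 0.4 to 1.95, with 11 members at least 1.5 times apart. Sparc stood at 133 ± 7.3 CPM in December and 144 ± 20.1 in January, Stmn2 at 740 ± 66.2 and 795 ± 23.4, and Rnd2 at 258 ± 60.5 and 249 ± 10.5 (SD, n = 3). The members furthest apart were Plagl1, given above, Dmtf1 at 49.5 ± 31.1 and 24.2 ± 12.5 CPM, Vipas39 at 46.4 ± 18.3 and 24.0 ± 3.6 CPM and Zfp771 at 30.6 ± 12.9 and 59.8 ± 15.9 CPM, in December and January (SD, n = 3). Dmtf1 and Zfp771 were chosen for this after their values were seen. The rule used the D6 level, so neither period is an independent check of the dip. With D6 from the December runs alone 91 genes met the rule, 75 of them members, and from the January runs alone 73 did, 68 of them members.

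**Figure D4:**
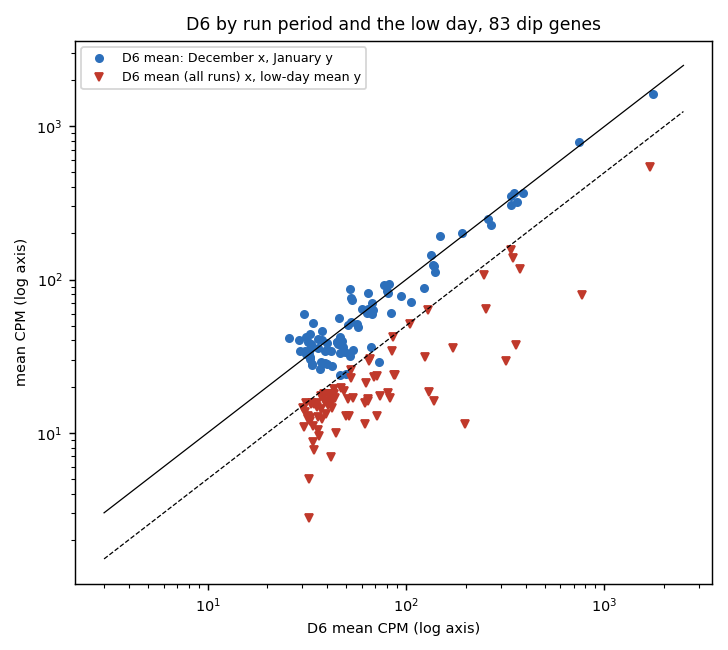
Blue circles give each member's D6 mean from December runs (x) and January runs (y), and red triangles its D6 mean from all runs (x) and its low-day mean (y), in CPM on log axes. The solid line is equality and the broken line 0.5. The circles lie about the solid line, and the triangles lie under the broken line or on it.

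Tail length was not used by the rule. It was tested on 3243 genes with at least 5 reads in every library, which took in 10 members. By limma no member passed at D2 against D0 (3.02% of all genes did) or at D6 (7.86% of all genes did), and at an unadjusted p under 0.05 there were 0 and 2 members. At D4, 2 of the 10 were shorter, Stmn1 and Stmn2, beside 4.59% of all genes. The geometric mean tail of Stmn1 was 117, 119 and 121 nt at D0, 114, 113 and 110 nt at D2, 110, 109 and 113 nt at D4 and 113, 112 and 113 nt at D6. All D0 libraries lay above the others. Stmn1 at D4 differed from D0 by -0.10 ± 0.03 (log2, SE; adjusted p = 0.0491 by limma), and this call was lost when any of 11 of the 12 libraries was left out (-0.12 to -0.09), D0 replicate 1 being the exception.

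Stmn2 had tails of 98.1, 99.5 and 100 nt at D0, 73.1, 85.3 and 104 nt at D2, 85.0, 86.4 and 88.2 nt at D4 and 92.3, 90.7 and 88.8 nt at D6. D4 lay below D0 in every library, and D2 was spread widely on 46 reads. Its D4 difference was -0.20 ± 0.06 (log2, SE; adjusted p = 0.0266 by limma). It was not called without D0 replicate 2 or 3 (-0.19 each) or without any 1 of the D4 libraries (-0.21 to -0.19), and it was not called without weights or with median tails.

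**Figure D5:**
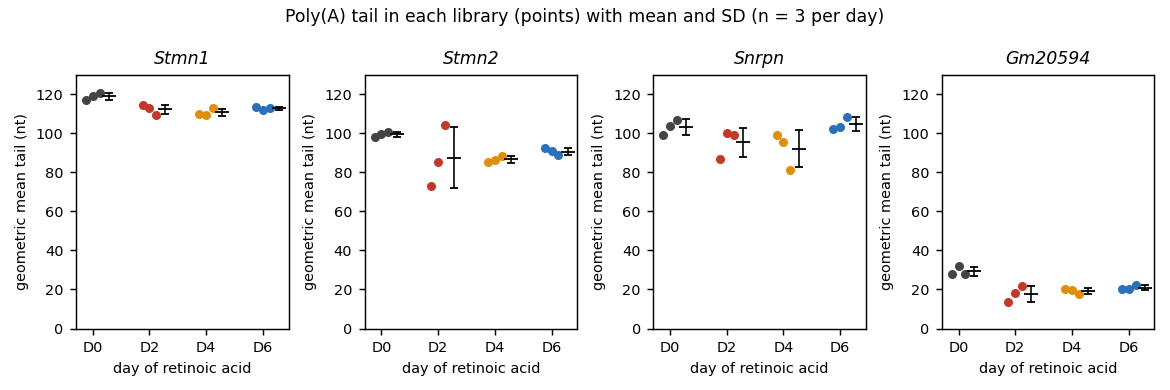
Geometric mean poly(A) tail in nt of 4 members in each library (points) by day, with mean and SD (n = 3 per day) and an axis from 0. Stmn1 and Stmn2 have their longest mean at D0, with 1 Stmn2 library at D2 above it. Snrpn at D0 overlaps each other day, and its D6 libraries lie above those of D2 and D4. Gm20594 stays at 13.7 to 32.0 nt.

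With the D0 and D6 libraries alone, a fit added after the data were seen, 81 members could be tested among 5491 genes. Arhgap21, which speeds GTP hydrolysis by small GTPases, had longer tails at D6 by 0.55 ± 0.17 (log2, SE; adjusted p = 0.0472 by limma), beside 1.99% of all genes. Its tails were 101, 97.4 and 126 nt at D0 and 127, 174 and 152 nt at D6, with no overlap. They rested on 39, 29 and 30 reads at D0 and 9, 19 and 10 reads at D6. The fit on D0 and D6 alone was not repeated with a library left out. Gm20594 had shorter tails by -0.49 ± 0.09 (adjusted p = 0.000191 by limma), beside 2.31% of all genes, with 29.3 ± 2.3 nt at D0 and 20.9 ± 1.3 nt at D6 (SD, n = 3). Taken over all reads of the group, the median tail was 112 to 118 nt in every library, while it was 95.2 to 106 nt over all kept reads. Taken as the median over genes, it was 110.5 to 125.9 nt for members. For the genes with at least 30 CPM at D0 and D6 that median was 102.3 to 112.4 nt, so the ranges over libraries overlapped. Members' main transcripts had a median length of 3051 nt and those of the other genes of the 3806 had 2437.5 nt, which is given without a test.

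The share of a gene's reads on its main transcript was tested on 1734 genes with 7 members. By limma no member passed at D2, D4 or D6 against D0, where 0.461%, 2.71% and 2.02% of all genes did, and at an unadjusted p under 0.05 there were 0, 2 and 0 members. Idh1 at D4 differed by 15.67 ± 4.14 percentage points (SE; adjusted p = 0.054 by limma), and it passed in 5 of 15 alternatives, namely with at least 10 reads per library and without D0 replicate 2, D2 replicate 3, D4 replicate 3 or D6 replicate 1. With D0 and D6 alone none of 51 members passed (0.934% of all genes did), and 5 had an unadjusted p under 0.05. In 35 members the main transcript held at least 90% of the reads.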

How the data were processed

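Native polyadenylated RNA of 12 P19 libraries was sequenced on R9 nanopores. Per the study's methods, base calls came from Guppy and alignments to mm10 transcripts (GENCODE vM17) from Minimap2 2.20, while Nanopolish gave the tails and Deeplexicon the barcodes. The deposited per-read table gives tail length in nt, the authors' mapping quality (a score) and the authors' barcode confidence (a fraction). A second deposited table holds the authors' own fold changes and p-values and was not used.

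The 6306434 lines included 69 malformed ones and 289260 with no library. Reads with the quality tag PASS on mRNA, no pseudogene and no mitochondrial gene were kept (4274320) and tallied per gene. The tallies were made here from single reads, so limma-voom (limma 3.58.1, R 4.3.3) was used with trimmed-mean scaling (30% of ratios and 5% of levels trimmed), a pseudocount of 0.5 reads and at least 30 reads per gene, all days in 1 fit. Tails (mean log2 nt) and main transcript shares were fitted by limma weighted by reads, with at least 5 reads in every library (shares also needed a second transcript with at least 5% of reads). P-values were adjusted by Benjamini-Hochberg over all genes and called at 0.05. Exact permutation of 3 against 3 libraries cannot go below 0.1 and was not used. Shared words have 31 bases. The fits were tested on simulated data. Python 3.11.15, pandas 2.3.3, scipy 1.17.1 and matplotlib 3.10.9 made the tables and figures.

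Named members are the 15 deepest by log2 of the lower end over the low day (each + 1 CPM), the 10 with most reads, those in a gene list, those past a tail or transcript test, and the 3 on each side of the limit, with 5 like profiles. Values of some members are not reported here. Members and lists were chosen with earlier results of these data known.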

Additional observations from a re-analysis of the deposited data

How the results depend on the processing

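Of the 27 D6 calls among members, 14 kept their direction and side of the threshold in every alternative in which they were fitted, and none changed direction. Of the 56 members not called, 36 changed sign and 7 passed the threshold in some alternative. The number of genes that met the rule was 158 with a floor of 20 CPM, 27 with 50 CPM, 33 at a limit of 0.4, 173 at 0.6, and 192 with every library thinned to the smallest, 49 of them members, and 76 to 125 without 1 library (125 without D2 replicate 2, with 76 members among them). It was 100 with trimmed-mean scaling (72 members among them), 115 by medians (62) and 96 at a mapping quality of at least 10 (45). Of the 83 members, 15 were kept by all of 20 other forms of the rule, which leave out the stricter floor of 50 CPM and limit of 0.4. Of those 15, Arl4c, Gnao1 and Hexim1 failed that floor and Cnn3 and Stmn1 failed that limit. Genes differing at D6 numbered 3499, against 2201 at a mapping quality of at least 10 and 2311 by limma-trend, the cause of which was not tested. Tail calls were 30 to 114 at D2 and 166 to 268 at D6 without 1 library, and 137 at D6 without weights, against 98 and 255. Main transcript calls at D2 were 8, against 5 with at least 10 reads and 1 to 7 without 1 library. At D4 they were 47, against 12 unweighted, 31 at a mapping quality of at least 10 and 10 to 101 without 1 library. At D6 they were 35, against 19 unweighted and 21 to 38 without 1 library. Same-numbered libraries showed no shared deviation across genes (correlations of -0.14 to 0.15 for levels and -0.04 to 0.1 for tails), although on every day replicate 2 had the most and replicate 3 the fewest tails under 30 nt. With a replicate block, 3130 genes differed at D6, tails gave 115, 156 and 225 calls and main transcripts 4, 10 and 20 at D2, D4 and D6, and Snrpn joined Stmn1 and Stmn2 as shorter at D4 (without the block -0.20 ± 0.06, SE; adjusted p = 0.0583 by limma). Depth limits the D2 values, with 120326 to 241064 reads per library and a median of 10 reads per member.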

Other observations

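A counterpart of the rule, a higher of D2 and D4 at least 2 times both ends and at least 30 CPM, was met by 91 genes. It set no floor at D0 and D6, so this count is not out of the same 3806 genes. Over the 3806 genes the median ratio of the low day to the lower end was 1.06, and 1526 genes had a ratio under 1. Other members chosen here after their values were seen were Wnt7a, a secreted ligand of neural patterning, at 49.0, 29.3 and 23.1 CPM at D0, 16.6, 16.6 and 0 at D2, 27.8, 43.6 and 35.6 at D4 and 22.1, 35.0 and 44.6 at D6, and Dnmt3a, a DNA methyltransferase, at 154, 112 and 119, 58.2, 58.1 and 38.0, 23.8, 59.7 and 42.7, and 77.4, 93.3 and 86.2 CPM at the same days. Of 20 other forms of the rule, Wnt7a was kept by 15 and Dnmt3a by 14. Of the lists, those of cholesterol synthesis (18 eligible genes), fatty acid synthesis (11), amino acid response (17), endoplasmic reticulum chaperones (13), p53 targets (3), metallothionein, ferritin and redox genes (12), lysosome (11), G1 cyclins (6), DNA replication (22), mitosis (22), YAP targets (2), annexins, S100 proteins and galectins (3) and Notch and proneural genes (1) held no member. No keratin or junction gene was eligible.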
